A study of Homo sapiens with 6 samples.

Results

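Interferon regulatory factors (IRFs) are transcription factors that share a DNA-binding domain, and 8 genes of the family, IRF1, IRF2, IRF3, IRF4, IRF5, IRF7, IRF8 and IRF9, are described here. They were chosen by name and are 8 of the 58174 genes in the expression table. The samples are SiHa cells, an established human cervical squamous carcinoma line, harvested 48 h after transfection with GV230-BRCA1, a plasmid carrying BRCA1 (3 samples, the OV-BRCA1 group), or with empty GV230 (3 samples, the NC group). Both groups therefore received plasmid DNA and transfection reagent. Messenger RNA was sequenced, and the values are FPKM, the fragments assigned to a transcript scaled to its length and to all fragments of the sample. FPKM was summed over the transcripts of each gene.

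IRFs bind related GAAA-rich elements in the promoters of interferon genes and of interferon-stimulated genes. IRF3 and IRF7 lie in the cytoplasm until kinases below the nucleic acid sensors phosphorylate them, after which they enter the nucleus and switch on interferon genes. IRF9 is the DNA-binding subunit of ISGF3, the complex that forms with STAT2 below the interferon receptors, while IRF1 activates and IRF2 mainly represses overlapping sets of promoters.

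The label of the cells was checked against marker genes. Of 9 epithelial markers, KRT17 was the most abundant at a mean of 1430 FPKM in the NC group and 1030 FPKM in the OV-BRCA1 group, whereas KRT5 and TP63 were below 0.5 FPKM in every sample. KRT17 fell by 0.48 on the log2 scale and was the 1 marker of this list to pass as lower, while KRT8 (0.20), KRT18 (0.39) and EPCAM (1.12) passed as higher. For KRT8 the paper gives the opposite direction, since its supplement lists that gene as downregulated with BRCA1 overexpression. The same list holds KRT17, CD14, ACTA2 and COL1A1, which were lower here too. Its criterion was unlike, an FDR below 0.05 from DESeq on counts with an absolute log fold change above 1, while markers here pass by adjusted p alone. Of 15 leukocyte markers, 12 were below 0.5 FPKM in every sample and 6 were listed at 0 in all samples, among them PTPRC, CD3D, MS4A1, TYROBP and LST1. Of 9 fibroblast markers, 7 were below 0.5 FPKM in every sample, and LUM was listed at 0 in all. The summed leukocyte list stood at 31.7, 34.3 and 37.6 FPKM in replicates 1, 2 and 3 of OV-BRCA1 and at 24.8, 22.7 and 23.3 FPKM in those of NC. Its most abundant gene in the OV-BRCA1 group was CD68, at a mean of 26.3 FPKM against 3.43 FPKM in the NC group (log2 fold change 2.63). CD14, the other tested gene of that list, was the most abundant in the NC group. It went the other way, from 19.4 to 7.79 FPKM (-1.22). The summed fibroblast list stood at 7.73, 8.28 and 9.55 FPKM against 15.0, 16.7 and 15.2 FPKM, with ACTA2 the most abundant. ACTA2 and COL1A1, the only tested genes of that list, both passed as lower (log2 fold changes -0.77 and -0.79). The summed epithelial list stood at 1803, 1708 and 1851 FPKM against 2134, 2190 and 2101 FPKM. The part of these lists in the values of the IRF genes was not tested. In RNA from a whole culture, a change in the number of cells that express a gene and a change in RNA per cell cannot be told apart.

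BRCA1, the gene on the plasmid, had 35.7, 40.8 and 34.9 FPKM in the OV-BRCA1 samples and 20.1, 14.9 and 21.7 FPKM in the NC samples. All OV-BRCA1 samples lay above all NC samples, with a log2 fold change of 0.95 (limma, Benjamini-Hochberg adjusted p = 0.00373). GAPDH, a glycolysis enzyme often used as a reference, had a log2 fold change of 0.03 (limma, Benjamini-Hochberg adjusted p = 0.586).

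Of the 8 IRF genes, 6 had 0.5 FPKM or more in 3 or more samples and were tested with limma on log2(FPKM + 1), a scale that understates the change of low genes. IRF1, IRF2, IRF7 and IRF9 had a Benjamini-Hochberg adjusted p below 0.05 and were higher in the OV-BRCA1 group. IRF3 and IRF5 did not pass, and IRF4 and IRF8 were below that filter. Among all 16321 genes tested, 35.3% passed the same threshold, 16.4% as higher and 18.9% as lower. Which direction held more genes depended on the scaling, with 2674 higher and 3090 lower here, 2956 and 2776 with median-of-ratios scaling, and 2372 and 3473 with scaling to nuclear protein-coding genes. The groups did not overlap for these 4 IRF genes, as for 50.8% of all genes tested. IRF1 and IRF7 also had an absolute log2 fold change above 1, the added criterion for DEGs, which 3.99% of all genes met in either direction and 2.89% as higher. That share depends on the pseudocount, since 1280 genes met the criterion with 0.1 in place of 1, against 651.

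**Figure D1:**
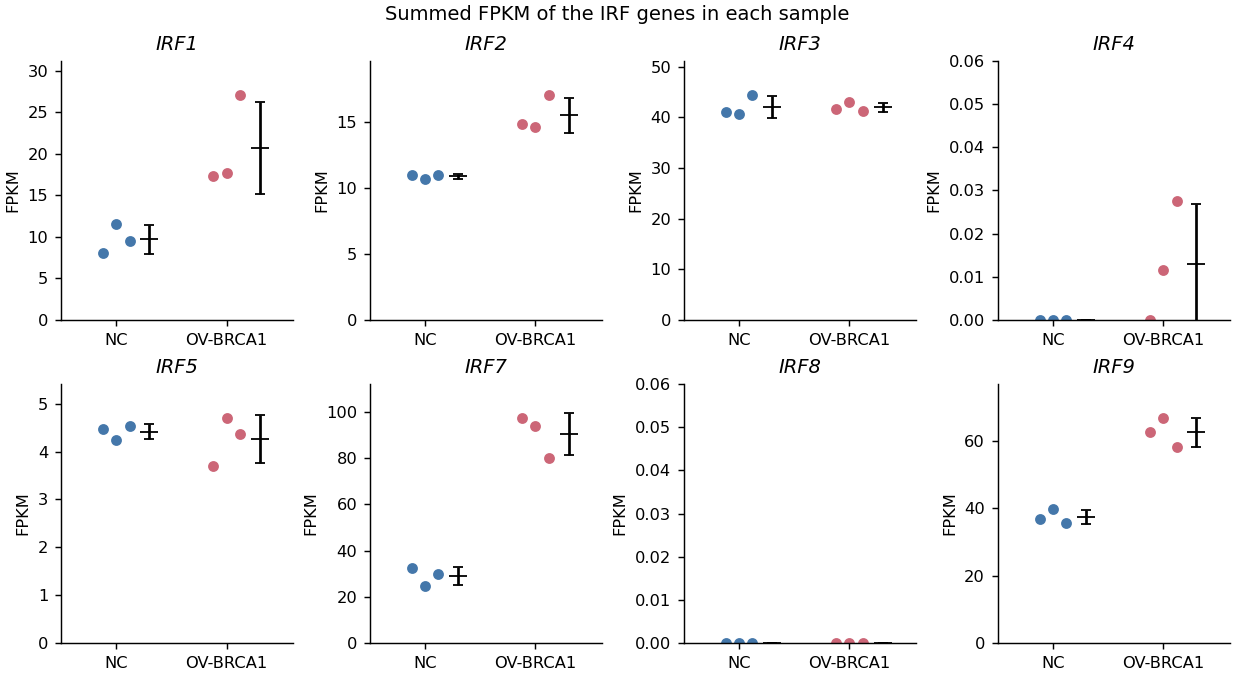
Summed FPKM of each IRF gene (vertical axes, each from 0) in the 3 NC samples (blue points) and the 3 OV-BRCA1 samples (red points), with the mean and SD of each group as a black bar beside the points. The groups are separate for IRF1, IRF2, IRF7 and IRF9 and overlap for IRF3 and IRF5, while IRF4 and IRF8 lie at or near 0.

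Of the IRFs that switch on interferon genes, IRF7 (ENSG00000185507, chromosome 11, 612553 to 615999 of GRCh38, minus strand) is itself induced by interferon in many cell types. It had 97.5, 94.0 and 80.3 FPKM in replicates 1, 2 and 3 of OV-BRCA1, and 32.4, 24.6 and 29.7 FPKM in NC samples 1, 2 and 3. The lowest OV-BRCA1 sample was well above the highest NC sample. The group means were 90.6 ± 9.10 and 28.9 ± 3.98 FPKM (SD, n = 3 each), and the log2 fold change was 1.62 (standard error 0.12, limma, Benjamini-Hochberg adjusted p = 2.44e-04). Of all genes tested, 198 had a higher log2 fold change than IRF7.

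IRF3 (ENSG00000126456, chromosome 19, 49659569 to 49665875, minus strand) is made constantly in most cells and is regulated mainly at the protein level. It had 41.7, 42.9 and 41.2 FPKM in the OV-BRCA1 samples and 41.0, 40.6 and 44.4 FPKM in the NC samples. The groups overlapped, and the highest and the lowest value were both in the NC group. The 95% interval of the log2 difference ran from -0.13 to 0.13 (limma, Benjamini-Hochberg adjusted p = 0.991). IRF5 (ENSG00000128604, chromosome 7, 128937612 to 128950035, plus strand), which acts below Toll-like receptors, had 3.71, 4.70 and 4.36 FPKM against 4.47, 4.24 and 4.53 FPKM. These groups overlapped too, and the 95% interval ran from -0.28 to 0.18 (limma, Benjamini-Hochberg adjusted p = 0.738).

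IRF9 (ENSG00000213928, chromosome 14, 24161053 to 24166565, plus strand) had 62.7, 66.9 and 58.2 FPKM in the OV-BRCA1 samples and 36.7, 39.9 and 35.8 FPKM in the NC samples. The groups did not overlap, with OV-BRCA1 higher, and the spread within each group was small beside the gap. The means were 62.6 ± 4.34 and 37.5 ± 2.16 FPKM (SD, n = 3 each), and the log2 fold change was 0.72 (standard error 0.07, limma, Benjamini-Hochberg adjusted p = 7.45e-04), which does not reach the DEG criterion.

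IRF1 (ENSG00000125347, chromosome 5, 132481609 to 132490798, minus strand) had 17.4, 17.7 and 27.1 FPKM in the OV-BRCA1 samples and 8.08, 11.5 and 9.5 FPKM in the NC samples. The groups were separate, with OV-BRCA1 sample 3 far above the other samples. The means were 20.7 ± 5.53 and 9.70 ± 1.73 FPKM (SD, n = 3 each), with a log2 fold change of 1.00 (standard error 0.20, limma, Benjamini-Hochberg adjusted p = 0.0103). It lay at the edge of the DEG criterion and fell below it without OV-BRCA1 replicate 3 (0.80) or without NC replicate 1 (0.89), and marginally without NC replicate 3.

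IRF2 (ENSG00000168310, chromosome 4, 184387713 to 184474580, minus strand) had 14.9, 14.6 and 17.1 FPKM in the OV-BRCA1 samples and 11.0, 10.6 and 11.0 FPKM in the NC samples. Again all OV-BRCA1 samples were higher, and the NC samples were almost equal. The means were 15.5 ± 1.34 and 10.9 ± 0.195 FPKM (SD, n = 3 each), and the log2 fold change was 0.47 (standard error 0.08, limma, Benjamini-Hochberg adjusted p = 0.00464).

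IRF4 (chromosome 6, 391739 to 411447, plus strand) and IRF8 (chromosome 16, 85898803 to 85922609, plus strand) act mainly in lymphoid and myeloid cells. IRF8 was listed at 0 in all 6 samples for each of its 11 transcripts. At the estimated depth, 3 fragments on IRF8-201, of 3030 bases, would be 0.0496 to 0.0698 FPKM, and a level below that is not excluded by a value of 0, for counting error alone. IRF4 was listed at 0, 0.0116 and 0.0275 FPKM in replicates 1, 2 and 3 of OV-BRCA1, an estimated 0, 1 and 2 fragments, and at 0 in all NC samples. Both stayed below the level of 3 fragments, and no fold change is given.

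Since FPKM is per length, the levels of the genes can be ordered. In the NC group the order was IRF3, IRF9, IRF7, IRF2, IRF1 and IRF5, and only the neighbours IRF2 and IRF1 overlapped in their ranges. In the OV-BRCA1 group the order was IRF7, IRF9, IRF3, IRF1, IRF2 and IRF5, with no overlap between neighbours. The share of IRF7 in the summed FPKM of the 8 genes was 18.7% to 24.3% in the NC samples and 35.2% to 41.0% in the OV-BRCA1 samples. The summed level itself was 133 ± 1.75 and 236 ± 6.61 FPKM (SD, n = 3 each).

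The ratios of 3 pairs were compared within each sample. IRF7 to IRF3, which can form dimers, stood at 2.34, 2.19 and 1.95 in the OV-BRCA1 samples and 0.792, 0.606 and 0.669 in the NC samples. IRF9 to IRF3 stood at 1.5, 1.56 and 1.41 against 0.896, 0.983 and 0.805. IRF1 to IRF2, an activator and a repressor, stood at 1.17, 1.21 and 1.59 against 0.738, 1.08 and 0.863. In each pair the OV-BRCA1 ratios were the higher ones in all samples, with log2 differences of 1.65, 0.74 and 0.57. The exact two-sided permutation p was 0.1 for each, also after Benjamini-Hochberg adjustment over the 3 ratios, and 0.1 is the smallest that 3 samples against 3 can give.

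The transcripts behind these sums differed between samples. For IRF1, OV-BRCA1 sample 3 and NC sample 2 had 20.7 and 8.57 FPKM on IRF1-202, a coding transcript of 2061 bases that was listed at 0 in the other 4 samples. In those 4 samples IRF1-201, of 3579 bases, had 14.2 and 11.7 FPKM in the OV-BRCA1 group and 4.64 and 5.35 FPKM in the NC group, against 1.84 and 0.608 FPKM in the samples with IRF1-202. The samples with the shorter transcript were those with the highest summed FPKM in each group. When FPKM was multiplied by transcript length and summed, a scale chosen after these values were seen and called FPM here, fragments scaled to the sample total alone, IRF1 stood at 54.9, 48.5 and 55.1 in the OV-BRCA1 samples and 20.5, 22.7 and 24.6 in the NC samples. On that scale OV-BRCA1 sample 3 no longer stood apart, and the log2 fold change was 1.19 (standard error 0.09, limma, Benjamini-Hochberg adjusted p = 1.96e-04). Over all settings of the gene-level test, that adjusted p ranged from 1.96e-04 to 0.0351 (limma).

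**Figure D2:**
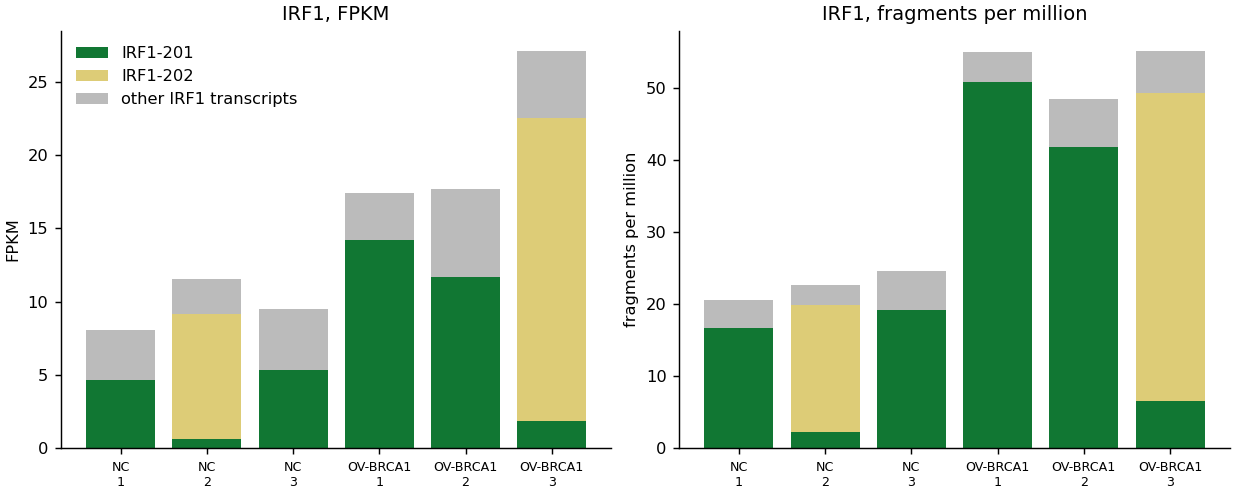
Level of IRF1 in each sample as FPKM (left) and as FPM (right), stacked by transcript: IRF1-201 (green), IRF1-202 (yellow) and the other 9 transcripts (grey). IRF1-202 appears in NC sample 2 and OV-BRCA1 sample 3 alone, and the OV-BRCA1 samples are nearly level on the right.

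The same scale gave log2 fold changes of 1.69 for IRF7, 0.81 for IRF9 and 0.47 for IRF2, and IRF3 and IRF5 again did not pass.

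**Figure D3:**
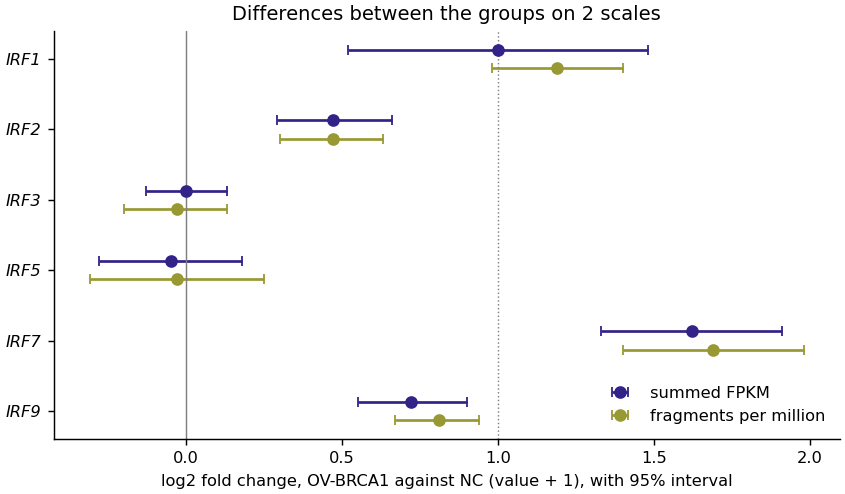
Log2 fold change of the 6 tested IRF genes, OV-BRCA1 against NC, from summed FPKM (dark blue) and from FPM (olive), with 95% intervals from limma. The solid line marks 0 and the dotted line 1. The intervals of IRF1, IRF2, IRF7 and IRF9 lie above 0 on both scales, and those of IRF3 and IRF5 include 0.

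IRF7 is divided over 16 transcripts. The 6 annotated as targets of nonsense-mediated decay, a route that degrades messages with an early stop codon, summed to 54.1, 52.0 and 41.8 FPKM in the OV-BRCA1 samples and 14, 9.39 and 13.3 FPKM in the NC samples. The 6 coding transcripts summed to 34.3, 32.7 and 30.9 FPKM against 13.2, 10.9 and 12.4 FPKM. Both classes were higher in all OV-BRCA1 samples, as were the 4 retained-intron transcripts, which summed to a mean of 8.67 FPKM against 4.51 FPKM. The share of the decay class averaged 54.3% ± 1.95 for OV-BRCA1 and 42.1% ± 3.46 for NC (SD, n = 3 each), a difference given without a test because the classes were compared after their values were seen. Likewise without a test, the coding share averaged 36.2% against 42.2% and the retained-intron share 9.57% against 15.7%. Since these transcripts share most of their exons, the division of fragments among them is an estimate.

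In IRF9 the coding share was higher with OV-BRCA1, at 50.9% ± 4.38 against 32.1% ± 15.5 (SD, n = 3 each), also without a test. Its main coding transcript IRF9-202 had 22.4, 24.2 and 24.3 FPKM in the OV-BRCA1 samples and 10.7, 3.32 and 11.0 FPKM in the NC samples. The retained-intron transcript IRF9-215 had 13.3, 14 and 11.4 FPKM against 11.2, 13.3 and 10.9 FPKM. The former was separate between the groups and the latter overlapped. NC sample 2 had its low IRF9-202 value together with 15.2 FPKM on the retained-intron transcript IRF9-208, which stood at 2.8 to 5.5 FPKM in the other samples. Tested singly, IRF9-202 did not pass (log2 fold change 1.54, limma, Benjamini-Hochberg adjusted p = 0.103).

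**Figure D4:**
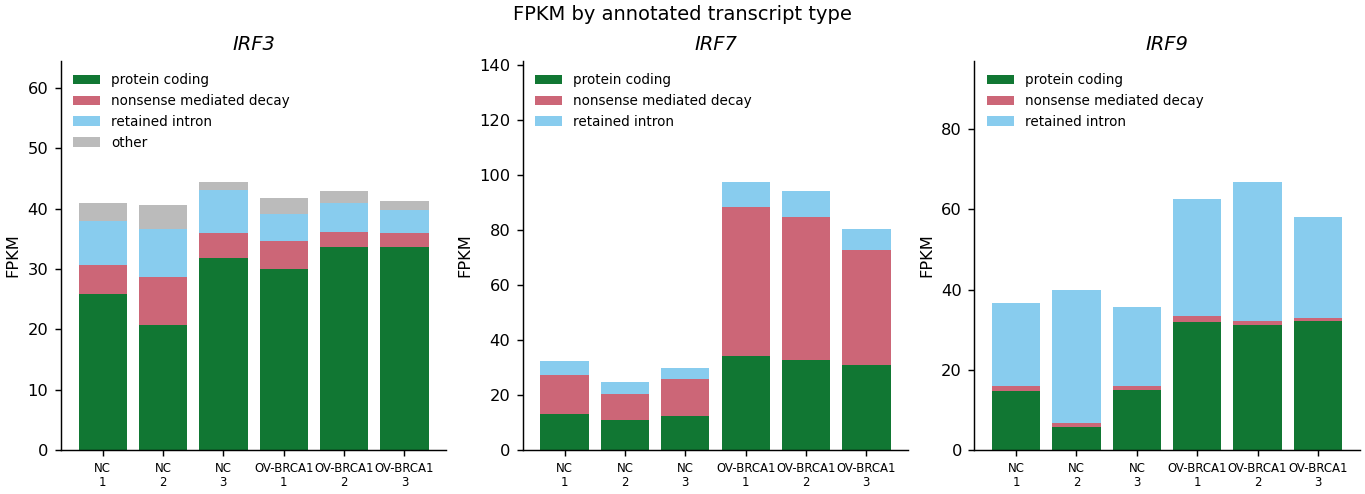
Summed FPKM of IRF3, IRF7 and IRF9 in each sample, stacked by annotated transcript type (green coding, red nonsense-mediated decay, light blue retained intron, grey other). The red part of IRF7 is larger than the green part in all OV-BRCA1 samples and in NC samples 1 and 3, and the green part of IRF9 is smallest in NC sample 2.

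Across the 8 genes, 49 of 113 transcripts were tested singly, and 6 passed, all higher in the OV-BRCA1 group. Of all 50925 transcripts tested, 5.47% passed, 2.85% as higher. Of the 6, 5 belong to IRF7, with IRF7-213 at a log2 fold change of 2.04 and IRF7-206 at 1.86, and the sixth is IRF3-215 (0.62, limma, Benjamini-Hochberg adjusted p = 0.0414), whose level was at most 1.34 FPKM. IRF2-201, which holds 92.5% of the FPKM of IRF2 in the NC group, did not pass (log2 fold change 0.44, limma, Benjamini-Hochberg adjusted p = 0.0617).

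Genes that overlap an IRF gene matter because the sources used here do not state whether strand was used, so fragments of overlapping genes may be shared. C5orf56 overlaps 7094 bases of IRF1 on the opposite strand and had 3.90, 4.07 and 3.54 FPKM against 1.46, 1.5 and 1.58 FPKM (log2 fold change 0.94, limma, Benjamini-Hochberg adjusted p = 4.71e-04). AC116366.3 covers IRF1 on the opposite strand and was below the filter. BCL2L12 overlaps 734 bases of IRF3 on the opposite strand and fell by 0.34 on the log2 scale (limma, Benjamini-Hochberg adjusted p = 0.0242). AL136295.5 covers IRF9 on the same strand, at a mean of 7.19 FPKM against 5.39 FPKM (limma, Benjamini-Hochberg adjusted p = 0.0821). No annotated gene of the table overlaps IRF4, IRF5 or IRF7, and those overlapping IRF2 and IRF8 were below the filter.

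The promoters of 5 IRF genes, IRF1, IRF4, IRF5, IRF8 and IRF9, from RefSeq (GRCh38.p14, 250 bases before to 50 after the start), were searched on both strands for sequences bound in interferon signalling, and those of IRF2, IRF3 and IRF7 were not analysed here. Matches are shown for IRF1 and IRF9, the genes among these 5 that passed as higher. The GAS element TTCNNNGAA, to which STAT dimers bind, was in 7.66% of all 35116 promoters and in those of IRF1 and IRF9. The ISRE core GAAANNGAAA was in 3.57% of promoters and in none of the 5. A looser form, GAANNGAAA, chosen after the IRF9 promoter was seen, was in 7.66% of promoters, among them that of IRF9. It was also in 1 of 4 listed promoters of IRF5 and 1 of 2 of IRF8. The NF-kB consensus was in 5.91% of promoters and in that of IRF1. For IRF9 the RefSeq start differs from the gene start given above, 24161053, which comes from GENCODE. Both IRF9 matches lie downstream of that GENCODE start, at 63 to 55 and 36 to 28 bases before the RefSeq start. The matched letters are in capitals, a match is a description and not a shown binding site, and the matches do not overlap one another.
IRF1 GAS, chr5:132490880-132490907, minus strand: acagcctgatTTCCCCGAAatgacggca
IRF1 NF-kB, chr5:132490805-132490832, minus strand: gccagggctGGGGAATCCCgctaagtgt
IRF9 GAS, chr14:24161192-24161219, plus strand: accacgtgatTTCTGGGAAaaggccctc
IRF9 loose ISRE, chr14:24161219-24161246, plus strand: ccctggaggaGAACTGAAActtagggtg

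For each IRF gene that passed, the nearest profiles among the tested protein-coding genes were found by Euclidean distance of centred log2(FPKM + 1) over the 6 samples. For IRF7 they were GBP5 (0.205), IFI35 (0.252) and HIST1H2BJ (0.266). For IRF1 they were PARP10 (0.243), CR1L (0.296) and IL20 (0.302), for IRF2 SNX14 (0.040), IKZF3 (0.066) and GNAI1 (0.066), and for IRF9 ANKLE1 (0.097), RAB27B (0.098) and PODXL (0.117). Some of these are low genes, whose change this scale understates, so a short distance does not mean a like ratio of FPKM. The group means of OV-BRCA1 and NC were 2.31 and 0.0722 FPKM for GBP5, 1.3 and 0.0384 FPKM for CR1L, and 0.635 and 0.162 FPKM for IKZF3.

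Upstream of IRF3, IRF5 and IRF7, 22 of 26 sensors, adaptors and kinases were tested. Of these, 8 rose, 1 fell and 13 did not pass, with a median log2 fold change of 0.39 against -0.04 over all genes tested. By direction, 8 of 22 passed as higher and 1 of 22 as lower, against 16.4% and 18.9% of all genes. The RNA sensor DDX58 stood at 140, 140 and 146 FPKM in the OV-BRCA1 samples and 18.2, 17.4 and 18.3 FPKM in the NC samples (log2 fold change 2.91), and IFIH1, another RNA sensor, rose by 2.57. The endosomal RNA receptor TLR3 rose by 1.24 and the DNA sensor CGAS by 0.86. MAVS, the adaptor of the RNA sensors, went the other way, from 7.74, 7.42 and 7.33 FPKM in the NC samples to 5.06, 5.68 and 5.39 FPKM, and fell by 0.41 (limma, Benjamini-Hochberg adjusted p = 0.00633). TBK1 and IKBKE, the kinases that phosphorylate IRF3 and IRF7, did not pass (log2 fold changes -0.07 and 0.34).

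Of the interferon receptors, their kinases and binding partners of IRFs, 15 of 18 were tested, and 3 rose, 2 fell and 10 did not pass, with a median of 0.04. The 33.3% that passed is close to the 35.3% of all genes, and by direction 3 of 15 and 2 of 15 stand against 16.4% and 18.9%. STAT2, the partner of IRF9 in ISGF3, stood at 92.7, 100 and 99.4 FPKM against 49.7, 47.7 and 54.9 FPKM, a log2 fold change of 0.93. The receptor chains IFNLR1 and IFNGR1 rose by 0.42 and 0.21, but neither passed without OV-BRCA1 replicate 1 or 3 or without NC replicate 2 or 3, and IFNGR1 did not pass without NC replicate 1 either. IL10RB, a chain of the interferon lambda receptor, had overlapping groups and did not pass (log2 fold change 0.64, limma, Benjamini-Hochberg adjusted p = 0.0975). Among the fits with a sample left out, IL10RB passed only in that without OV-BRCA1 replicate 1 (log2 fold change 0.94). The receptor kinases TYK2 and JAK1 fell by 0.58 and 0.28.

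All 20 genes known to restrain IRFs or signalling around them were tested, with 7 higher, 3 lower, 10 not past the test and a median of 0.13. By direction, 7 of 20 and 3 of 20 stand against 16.4% and 18.9% of all genes. USP18, which blocks the type I interferon receptor, rose by 2.38, TRIM21, a ubiquitin ligase for several IRFs, by 1.43, SOCS1, an inhibitor of JAK kinases, by 0.81 and TNFAIP3, a ubiquitin-editing enzyme, by 0.76. The IRF2 co-repressors went the other way. IRF2BP2 had 24.1, 24.6 and 25.2 FPKM in the OV-BRCA1 samples and 40.5, 41.5 and 42.2 FPKM in the NC samples and fell by 0.73 (limma, Benjamini-Hochberg adjusted p = 1.55e-04), and IRF2BP1 fell by 0.65. IRF2BPL, the remaining member of that family, did not pass (log2 fold change 0.10).

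Among genes that IRFs are known to activate, the lists share some members, CXCL10 among them. These lists were written with earlier results of these data known, so a high count in them is a description and not a test. Their counts stand beside 16.4% of all genes that passed as higher and 18.9% as lower, and their medians beside -0.04 for all genes. Of 32 IRF1 target genes, 27 were tested, 22 rose and 0 fell, with a median log2 fold change of 1.24. CXCL10, CXCL11, GBP5 and CD274 reached the filter in the OV-BRCA1 samples alone and so could only come out higher, and without them 18 of 23 rose, with a median of 1.10. CXCL10 (4.13), CXCL11 (2.78), GBP1 (2.37) and TNFSF10 (2.32) had the largest values. Of 19 IRF3 and IRF7 target genes, 13 passed the filter and rose, with a median of 2.82 and the largest values in RSAD2 (4.36), CXCL10 (4.13), IFIT3 (4.08) and IFIT2 (4.03). Of the interferon genes on that list only IFNL1 was tested, while IFNB1, IFNA1, IFNA2, IFNA4, IFNL2 and IFNL3 were below the filter. CXCL10 and IFNL1 reached the filter in the OV-BRCA1 samples alone, and the other 11 rose, with a median of 2.82. All 33 genes of the ISGF3 list rose, with a median of 2.02, and TRIM22 (3.96), IFI27 (3.91), MX1 (3.57) and IFITM1 (3.52) led it. EPSTI1 and RTP4 reached the filter in the OV-BRCA1 samples alone, and the other 31 rose, with a median of 2.11. The list includes IRF7 and IRF9, and without these the median was likewise 2.11.

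**Figure D5:**
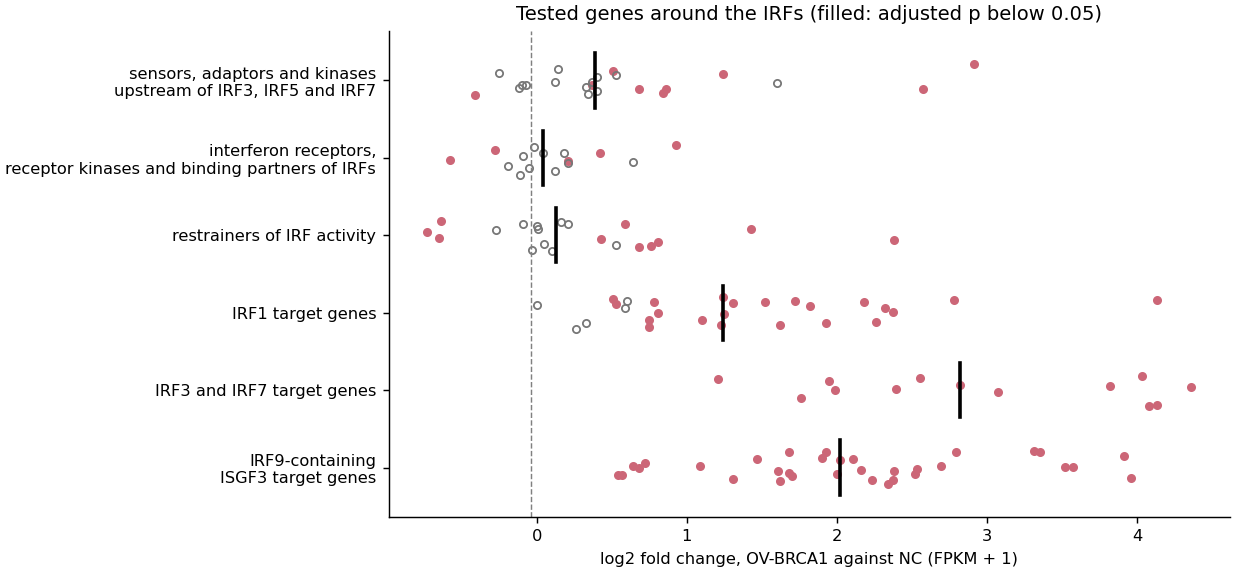
Log2 fold change of the tested genes of 6 lists around the IRFs (filled red points passed an adjusted p of 0.05, open grey points did not), with the list median as a black bar and the median of all genes tested as a dashed line. Vertical position within a list carries no meaning. The medians of the 3 target lists, 1.24, 2.82 and 2.02, lie to the right of those of the other lists.

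The mitochondrial share of summed FPKM was 14.8%, 17.3% and 16.3% in the OV-BRCA1 samples and 21.9%, 23.2% and 21.0% in the NC samples. With samples scaled to nuclear protein-coding genes, the log2 fold changes were 1.58 for IRF7, 0.97 for IRF1, 0.69 for IRF9 and 0.44 for IRF2, so IRF1 no longer met the DEG criterion and all 4 still passed the adjusted p.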

How the data were processed

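SiHa mRNA libraries of 3 OV-BRCA1 and 3 NC samples were grouped by their labels. The authors deposited FPKM for 199167 transcripts. The submitters' processing notes name FastQC, HISAT2 and hg38, and the quantification tool, annotation and use of strand are not given in the sources used here. Identifiers were named by GENCODE release 29, in which 198868 of these transcripts had an entry, and FPKM was summed per gene. Depth was estimated from low FPKM values as 16.1, 16.7 and 14.2 M fragments for OV-BRCA1 replicates 1 to 3 and 16.2, 19.2 and 20.0 M for those of NC. Only 30.8% to 36.7% of low values lay within 0.1 of a whole fragment, so whole reads were not recovered, and floors cover counting error only. The study tested counts with DESeq, which FPKM does not allow. Genes with 0.5 FPKM or more in 3 or more samples were compared with limma 3.58.1 (R 4.3.3, trend, not robust) on log2(FPKM + 1), with Benjamini-Hochberg adjustment over all genes, a step tested on simulated data. Tables and figures used Python 3.11.15, numpy 2.4.6, pandas 2.3.3, scipy 1.17.1 and matplotlib 3.10.9. Named genes were the IRFs, BRCA1, GAPDH, the 4 largest called changes of each list with up to 3 called against its majority, nearest profiles and overlapping genes. TBK1, IKBKE, IFNGR1, IL10RB, IRF2BPL, MYD88, STUB1 and TRIM28 were named after their values were seen. So were the tested marker genes and the targets that reached the filter in 1 group. Some genes that the rule or the marker lists take are not reported here. Members and lists were chosen with earlier results of these data known. Alternatives were a pseudocount of 0.1, other filters, scalings, a replicate block, left-out samples, single transcripts and fragments scaled to the sample total without length (FPM, chosen after the values were seen), and a looser ISRE was searched after the IRF9 promoter was seen.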

Additional observations from a re-analysis of the deposited data

How the results depend on the processing

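The 4 IRF genes that passed did so under each other pseudocount, filter, scaling, block and left-out sample, and IRF3 and IRF5 did not pass under any. With the transcript most abundant over all samples alone, IRF7 still passed, and IRF1 (log2 fold change 1.08), IRF2 (0.44) and IRF9 (1.54) did not. For IRF9 that transcript was IRF9-202, at a mean of 8.33 FPKM in the NC group. There IRF9-215 was more abundant, at 11.8 FPKM, and it did not pass either (log2 fold change 0.12). The number of IRF genes meeting the DEG criterion was 2, 1 when scaled to nuclear protein-coding genes, and between 1 and 2 with a sample left out, since IRF1 lies at the limit. With a pseudocount of 0.1 the DEGs of the whole table numbered 1280 in place of 651. On FPM, chosen after the values were seen, 5 restrainers of IRFs were lower in place of 3, STUB1 and TRIM28 being added. More genes passed on FPM in the whole table too, 3608 as lower in place of 3090 and 3182 as higher in place of 2674. The upstream list then had 11 higher in place of 8. The receptor and partner list had 4 higher in place of 3 and 3 lower in place of 2. The cause of these changes was not tested.

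Replicate numbers did not pair the samples: deviations of same-numbered samples correlated at -0.024, 0.025 and 0.014, and OV-BRCA1 sample 1 correlated best with NC sample 3. With the replicate number as a block, 4595 genes were called in place of 5764, and all 4 IRF genes still passed. With that block, 0 IRF transcripts passed limma in place of 6, and 14 had an unadjusted p below 0.05 in place of 21. Of the interferon receptor and partner genes, 1 was then higher in place of 3. With a sample left out, that receptor count ranged from 1 to 3. The estimated depth limits IRF4 and IRF8 most, where 1 fragment decides whether a value is above 0.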

Other observations

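Several target genes of IRFs were below the filter, and their values were chosen for mention after they were seen. With no filter on low values, 25 IRF1 targets passed as higher in place of 22, and 14 IRF3 and IRF7 targets in place of 13, beside 2426 of all 33326 genes tested at that setting. IL12A, an IRF1 target, stood at 0.371, 0.811 and 0.619 FPKM in replicates 1, 2 and 3 of OV-BRCA1 and at 0.0335, 0 and 0.216 FPKM in the NC samples. GBP4 stood at 0.407, 0.569 and 0.591 FPKM against 0.0647, 0.0446 and 0.0805 FPKM. NOS2 stood at 0.0974, 0.182 and 0.134 FPKM against 0, 0.0263 and 0.0124 FPKM. Of the remaining IRF1 targets below the filter, CXCL9 was above 0 only in OV-BRCA1 sample 2 (0.0404 FPKM). VCAM1 was above 0 only in NC sample 2 (0.0285 FPKM). IFNB1, the interferon beta gene, stood at 0.686, 0.774 and 0.479 FPKM against 0.143, 0.0641 and 0 FPKM. Of the interferon alpha genes among the IRF3 and IRF7 targets, IFNA4 was listed at 0 in all samples, and IFNA2 in all but NC sample 2 (0.045 FPKM). IFNA1 stood at 0.110, 0.055 and 0.0719 FPKM against 0.144, 0 and 0.107 FPKM, with overlapping groups. Of the interferon lambda genes below the filter, IFNL2 was above 0 only in OV-BRCA1 sample 1 (0.081 FPKM). IFNL3 stood at 0, 0.206 and 0.102 FPKM against 0 in all NC samples.

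MYD88, the adaptor between Toll-like receptors and IRF5 or IRF7, had 41.5, 52.1 and 14 FPKM in the OV-BRCA1 samples and 8.03, 5.54 and 19.5 FPKM in the NC samples. OV-BRCA1 sample 3 lay below NC sample 3, and the gene did not pass despite a log2 fold change of 1.6 (limma, Benjamini-Hochberg adjusted p = 0.081).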
